A study of Mus musculus with 8 samples.

Results

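Histone genes encode the proteins around which DNA is wrapped, and 106 of them were found among the 24651 genes of the count files. They were chosen by symbol, canonical and variant genes together. No measured value entered the rule, though earlier results of these data were known when it was set. H2ax, the gene of the variant H2AX, was left out, so no number or share of histone genes given here includes it. The samples were testes of male mice at postnatal day 12, 1 pair of testes per sample, 4 labelled wild type and 4 labelled Morc2b-/-. All were on a mixed strain background. RNA was extracted with TRIzol, polyadenylated transcripts were made into stranded libraries, and the 8 libraries were sequenced as 1 pool. The question was which transcripts differ in the mutant at an age when the oldest germ cells have only begun meiosis. In the mutant allele a neomycin cassette replaced the exon that holds the whole coding region of Morc2b, a germ cell gene of the MORC family of chromatin proteins. The mice came from targeted hybrid embryonic stem cells and from crosses of heterozygotes. The sample labels and the study's published methods call the RNA-seq controls wild type. The design text of the series calls them Morc2b+/-, and which of these holds could not be settled from the counts.

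Histones H2A, H2B, H3 and H4 form the core of the nucleosome and H1 binds the linker DNA between nucleosomes. Canonical histone genes lie in clusters, are expressed mainly while DNA is copied, and as a rule give transcripts that end in a stem-loop and carry no poly(A) tail. Replacement variants such as H3.3 and H2A.Z are made throughout the cell cycle from polyadenylated transcripts. Male germ cells add forms of their own, first in spermatogonia and spermatocytes and later in spermatids, in which most histones are finally exchanged for protamines.

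By role, the genes were 64 canonical genes, 10 replacement variants, 4 forms known from spermatogonia and spermatocytes, 24 forms known from spermatids, the oocyte linker histone H1f8 and 3 pseudogenes. The canonical genes comprised 5 of H1, 17 of H2A, 17 of H2B, 12 of H3 and 13 of H4. A further 7 annotated histone genes, 6 of them pseudogenes, had no listed transcript.

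The 3′ stem-loop is shown here because the libraries selected polyadenylated RNA, so the end of a histone transcript bears on whether it could be counted. The sequences were read from the NCBIM37 (mm9) genome, each with 5 bases on either side, from the region just after the coding end on the strand of the gene, and capitals mark the 16 letters of the stem-loop. The first 4 are canonical genes and the last 3 are forms of spermatogonia and spermatocytes.
H1f2: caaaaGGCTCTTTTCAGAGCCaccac
H2aw: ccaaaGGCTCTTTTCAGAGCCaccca
H2bc4: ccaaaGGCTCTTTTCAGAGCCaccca
H4c9: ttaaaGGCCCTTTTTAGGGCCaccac
H2ac1: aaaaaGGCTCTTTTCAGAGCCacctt
H2bc1: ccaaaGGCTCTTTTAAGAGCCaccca
H1f6: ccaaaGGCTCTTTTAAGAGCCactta
They lie at chr13:23831376-23831401 (H1f2, plus strand), chr11:58768669-58768694 (H2aw, plus), chr13:23776511-23776536 (H2bc4, plus), chr13:22132830-22132855 (H4c9, minus), chr13:24026755-24026780 (H2ac1, plus), chr13:24025594-24025619 (H2bc1, minus) and chr13:23788389-23788414 (H1f6, plus). Counted from the first capital, H4c9 differed from the other canonical sequences shown by T4C, C10T and A13G, and H2bc1 and H1f6 by C10A.

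A stem-loop with the letters of H1f2, except that positions 3, 4, 8, 10 and 13 could be any base, stood within 200 bases after the coding end in 58 of the 63 canonical genes with an annotated coding end (92.1%). It was found in 0 of 9 replacement variants, in 0 of 21 spermatid forms and in 3 of 3 spermatogonial and spermatocyte forms with an annotated coding end. Over all 22380 protein-coding genes of the annotation (GENCODE vM1) the share was 0.295%, on the gene's own strand. These were 66 genes, with the histone genes above among them, so this share is not a background apart from histones. The canonical genes without the letters there, open positions allowed, were H2ac22, H2bc18, H2bc21, H4c11 and H4c2. With no position open, the letters of H1f2 stood there in 38 of 63 canonical genes and in 0 of 13 canonical H4 genes. A match is a description of letters, and a missing match says only that these letters were not in that window.

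The promoters of the RefSeq table (GRCm38.p6, 250 bases before to 50 after the start) held 60 of the canonical genes and all 24 spermatid forms. Canonical promoters held CCAAT, the letters that the factor NF-Y binds, in 51 of 60, and these 51 included every canonical H1, H2A, H2B and H3 promoter in the table but only 3 of 12 H4 promoters. Over all 32851 promoters in the table the share with CCAAT was 37.4%. TATAAA stood in 33 of 60 canonical promoters against 13.6% of all promoters. Among the spermatid forms, CCAAT stood in 5 of 24 and TATAAA in 2 of 24. TGACG, the half-site of the cAMP response element that CREM binds in spermatids, stood in 2 of 24 spermatid promoters, in 28 of 60 canonical promoters and in 20.8% of all promoters. Its palindrome TGACGTCA, which contains the half-site, stood in 0 of 24 spermatid promoters and in 1.79% of all. Both strands were searched, and some neighbouring H2A and H2B genes share a stretch of promoter. A single site there counts for both genes, as for H2ac11 and H2bc11 at chr13:22043094-22043117 (GRCm38.p6), so the canonical promoters are not independent of each other. Many spermatid forms are near copies of each other in their exons, so their promoters may not be independent either.

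The 8 libraries held 27144796 to 36941755 counts each. Reads that fell on more than 1 listed transcript were tallied apart, and their share of the reads with a unique alignment was 26.8% to 28.8%. The targeted gene was read first. Morc2b stood at 11.7, 16.2, 0.857 and 39.98 CPM (counts per 1000000 counts of the library, whose size was scaled by TMM) in the wild type libraries in label order, and at 0.323, 0.270, 3.29 and 0.0688 in the Morc2b-/- libraries. The library labelled wild type replicate 3 lay below Morc2b-/- replicate 3, so the groups overlapped. The log2 fold change of Morc2b was -4.09 (SE 1.21) and did not pass the adjusted threshold. This gene does not settle the genotype of the library labelled wild type replicate 3. The overlap rests as much on Morc2b-/- replicate 3, at 3.29 CPM against 0.0688 to 0.323 CPM in the other Morc2b-/- libraries. The source of that level was not tested. Wild type replicate 1 also stood apart in the sum of 8 epididymis markers, at 168.9 CPM against 2.92 to 12.2 CPM in the other 7 libraries. Spink8 (118 CPM there) and Ces5a (46.5 CPM) carried this sum, whereas 3 of the 8 markers were at 0 counts in every library and Cst11 was not highest there. The same library was highest in the sum of 4 peritubular myoid cell markers, at 1497 CPM against 714 to 911 CPM, and in 3 of the 4 (Acta2, Cnn1 and Des). Wild type replicate 1 and Morc2b-/- replicate 3 stood apart in the sum of spermatid markers, whose values stand with the spermatid forms.

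Histone genes took 0.137% to 0.181% of all counts. At 0 counts in every sample were 27 of the 106 genes, a further 46 reached 1 to 9 counts in their highest sample, and 33 reached 10 or more. Of the 33, 11 were canonical, 8 were replacement variants, 4 were spermatogonial and spermatocyte forms, 7 were spermatid forms and 3 were pseudogenes. A single gene, H3f3b, took 66.3% to 73.3% of the histone counts of a sample.

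Many histone genes are near copies of each other. Each gene's exons, as annotated in GENCODE vM1, were therefore cut into overlapping windows of 75 bases, the number of cycles of the sequencing kit. Each window was looked up in the whole genome. The RefSeq transcripts that were counted can differ from these exons. The median share of windows found once was 55.8% in canonical genes and 99.97% in replacement variants. It was 17.5% in spermatid forms, 7 of which had no window found once. Among canonical genes, the 11 with 10 or more counts had a median of 93.3% of windows found once, and the 53 with fewer had 50.6%. Of those 53, 5 had at least 90% of windows found once and still reached no more than 6 counts in any sample, namely H1f3, H2ac6, H2bc6, H4c14 and H4f16. The annotated exons of H1f3, H2ac6 and H2bc6 were long, at 3821, 2482 and 2438 bases, so their shares may rest on sequence outside the counted transcripts. A stem-loop followed the coding end in 49 of the 52 searched among these 53 (H3c15 has no annotated coding end) and in 9 of the 11. For a gene at or near 0 counts these data therefore do not separate absent transcripts from transcripts without a poly(A) tail or reads without a unique place, and 0 counts is not a measure of expression.

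**Figure D1:**
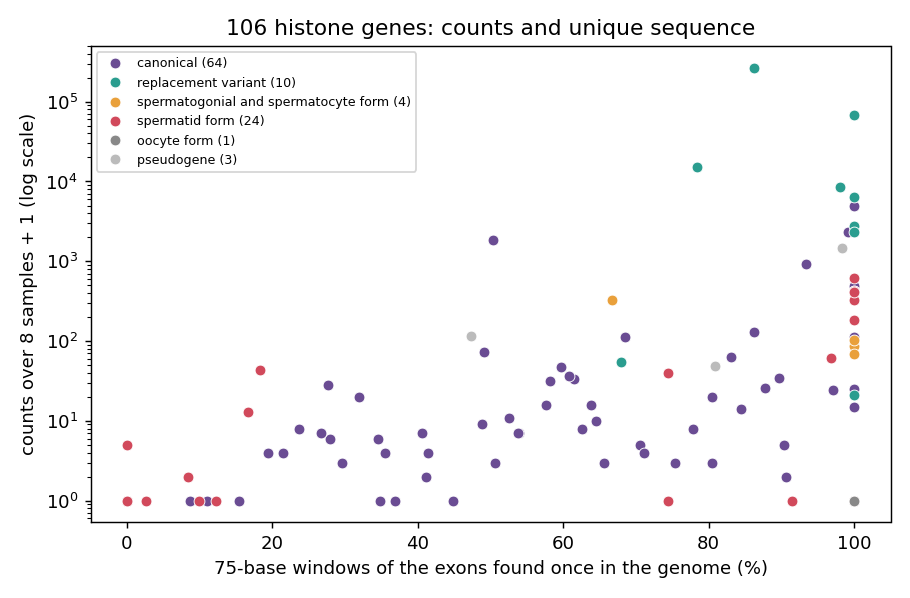
Each point is 1 of the 106 histone genes, with the share of its 75-base exon windows found once in the genome (%) on the horizontal axis and its counts summed over the 8 samples plus 1 (log scale) on the vertical axis, coloured by class. Of the replacement variants, 7 lie to the upper right, led by H3f3b, while Macroh2a1, Cenpa and H2az1 lie below 100 counts, as do most canonical genes over the whole range of unique sequence.

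Of the 106 genes, 23 had enough counts to be tested between genotypes, and 83 did not. None of the 23 passed an adjusted p of 0.05 in edgeR's quasi-likelihood test with Benjamini-Hochberg adjustment over 13507 genes, and 0.0% of all genes did. At an unadjusted p under 0.05 the histone count was also 0, against 0.503% of all genes in the higher direction and 1.34% in the lower direction. DESeq2 called 0 histone genes and 1 gene in all. For none of the 23 did all 4 samples of one genotype lie above all 4 of the other, against 0.407% of all genes for higher and 0.881% for lower in Morc2b-/- (1.29% for either). The log2 fold change was positive for 13 genes and negative for 10, with a median of 0.02 beside 0.00 over all genes tested, and was under 0.25 in size for 18 of the 23. Because whole testes were used, fewer cells of a type and less RNA per cell cannot be told apart in any of these values.

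**Figure D2:**
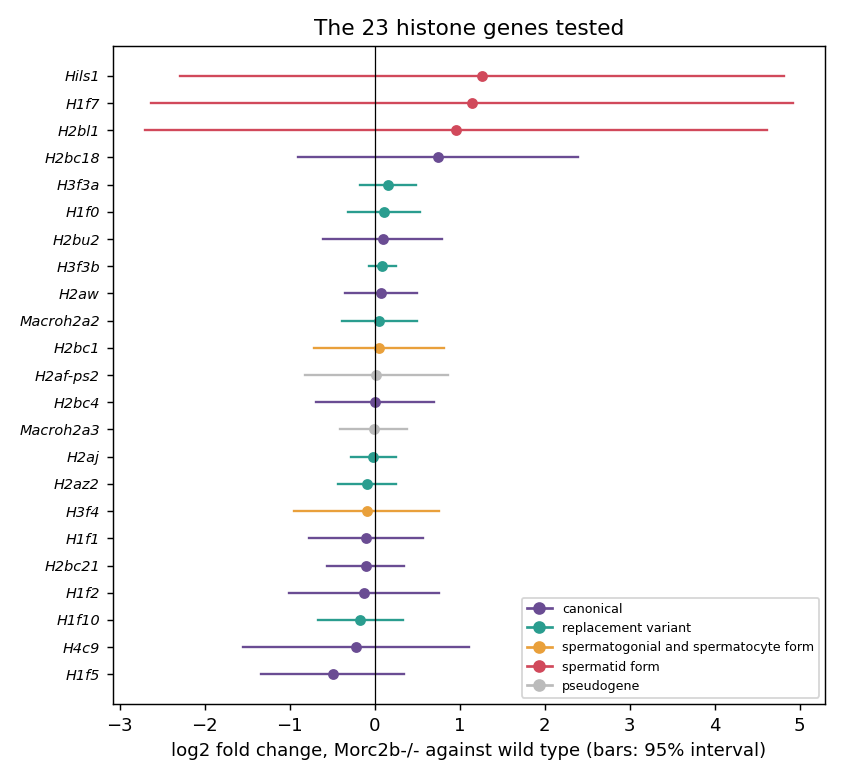
Log2 fold change of Morc2b-/- against wild type for the 23 tested histone genes, with bars for the 95% interval from the edgeR fit, coloured by class. Every interval crosses 0, and the intervals of Hils1, H1f7 and H2bl1 each run from below -2 to above 4.

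The replacement variants held most of the histone counts. H3f3b encodes H3.3, the form of H3 placed outside of DNA copying. It stood at 1077, 951, 987 and 1019 CPM in the wild type libraries in label order and at 987, 1090, 1191 and 1030 CPM in the Morc2b-/- libraries. The highest and the lowest of the 8 samples differed 1.25-fold and the genotypes overlapped, at means of 1009 ± 53.6 CPM (wild type; SD, n = 4) and 1074 ± 88.4 CPM (Morc2b-/-). The log2 fold change was 0.09, with a 95% interval from -0.07 to 0.25. H3f3a encodes the same protein from another locus. It stood at 54.9, 44.9, 55.0 and 69.9 CPM in wild type and at 59.2, 53.5, 63.2 and 75.1 CPM in Morc2b-/-, with replicate 4 highest in both groups, and its log2 fold change was 0.16 (-0.17 to 0.48). Per kilobase of windows found once, the mean level over all samples was 451 CPM for H3f3b and 24.8 CPM for H3f3a. Of the H3f3b windows, 86.3% were found once, and reads without a unique alignment were not counted. Antisense gene models overlap H3f3a, and the strand setting of the counting is not given in the sources used here.

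H1f0, the linker histone of cells that have stopped dividing, was the next highest. It measured 278, 282, 257 and 188 CPM in wild type and 259, 287, 349 and 189 CPM in Morc2b-/-. Replicate 4 was the lowest sample of each group, and the log2 fold change was 0.11 (-0.31 to 0.53). Macroh2a2 encodes macroH2A2, a large H2A variant of condensed chromatin, and measured 36.6, 28.9, 41.3 and 24.2 CPM in wild type and 37.6, 32.2, 41.0 and 24.96 CPM in Morc2b-/-. Its groups covered almost the same range, with a log2 fold change of 0.05 (-0.39 to 0.49). H1f10, another linker variant, measured 34.9, 29.0, 21.7 and 18.2 CPM in wild type and 16.3, 26.8, 26.3 and 23.1 CPM in Morc2b-/-. The wild type samples spread more widely than the mutant samples and enclosed 3 of the 4, and the log2 fold change was -0.17 (-0.67 to 0.34).

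The H2A variants H2aj and H2az2 were lower. H2aj, a replacement form of H2A, measured 11.5, 11.4, 10.04 and 10.9 CPM in wild type and 11.8, 9.33, 9.88 and 12.4 CPM in Morc2b-/-, a log2 fold change of -0.01 (-0.28 to 0.25). H2az2, one of the pair of genes for H2A.Z, measured 11.2, 9.83, 9.39 and 7.26 CPM in wild type and 8.02, 9.06, 10.3 and 8.01 CPM in Morc2b-/-, a log2 fold change of -0.09 (-0.43 to 0.25). For both the groups overlapped. H2az1, the other H2A.Z gene, had 3, 7, 15 and 3 counts in wild type and 10, 6, 6 and 3 counts in Morc2b-/-. Cenpa, the H3 variant of the centromere, had 20 counts in all, at most 6 in a sample, and Macroh2a1 had 0. These low counts are not levels of expression, since reads shared by listed transcripts were not assigned. Macroh2a1 has 4 listed transcripts, Cenpa has 6 with all its counts on 1 of them, and H2az1 has 2 with all 53 counts on 1. H2az2 likewise has 2 listed transcripts with all 2347 counts on 1, so any reads shared by them are missing from its level too.

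**Figure D3:**
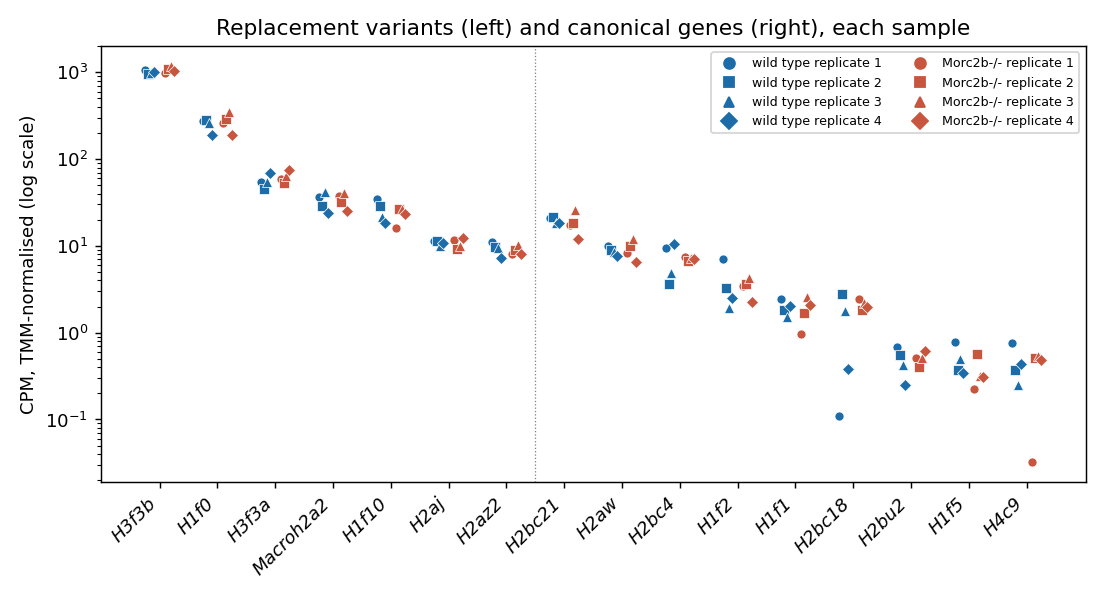
TMM-scaled CPM (log scale) in each of the 8 samples for the 7 tested replacement variants on the left and the 9 tested canonical genes on the right, blue for wild type and red for Morc2b-/-, with 1 marker shape per replicate number. The genotypes overlap for every gene, and H2bc18 has the widest spread between wild type samples.

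Canonical genes were few among the counts. Summed over all 64, the mean was 46.5 ± 6.40 CPM for wild type (SD, n = 4) against 45.7 ± 9.66 CPM for Morc2b-/-. The replacement variants summed to 1396 ± 75.1 CPM in wild type and 1485 ± 152 CPM in Morc2b-/-. Both differences were smaller than the larger of the SDs, and no test was made of sums over members. By kind, H2B genes carried most of the canonical signal, with 29.7 ± 2.78 CPM in wild type and 29.3 ± 5.95 CPM in Morc2b-/-. The H2A genes summed to 9.07 ± 0.929 CPM in wild type and 9.51 ± 2.36 CPM in Morc2b-/-, and the H1 genes to 6.30 ± 2.89 CPM and 5.68 ± 1.18 CPM. The H3 and H4 genes, which make up as much of the nucleosome as H2A and H2B, summed to only 0.383 ± 0.137 CPM and 1.07 ± 0.336 CPM in wild type, and to 0.271 ± 0.0928 CPM and 0.981 ± 0.523 CPM in Morc2b-/-. No canonical H3 gene reached 10 counts in a sample.

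The signal was held by few genes. H2bc21 alone had 41.4% of the 11929 canonical counts, and the leading 5 genes, H2bc21, H2aw, H2bc4, H1f2 and H1f1, had 88.3%. H2bc21, an H2B gene for which no stem-loop letters were found after the coding end, measured 20.9, 21.8, 18.3 and 18.5 CPM in wild type and 17.6, 18.3, 25.9 and 12.1 CPM in Morc2b-/-. The mutant samples held both the highest and the lowest value, and the log2 fold change was -0.10 (-0.55 to 0.35). H2aw, an H2A gene that carries the stem-loop printed above, measured 9.89, 9.06, 8.43 and 7.61 CPM in wild type and 8.31, 9.95, 12.1 and 6.46 CPM in Morc2b-/-, again with the mutant samples on both ends and a log2 fold change of 0.07 (-0.35 to 0.49). Trim17 overlaps H2aw on the same strand, so reads in the shared stretch could be tallied to neither gene.

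H2bc4 and H2bc18, both H2B genes, spread widely among the wild type libraries. H2bc4 had 347, 98, 137 and 333 counts in wild type and 231, 248, 252 and 208 counts in Morc2b-/-. The 4 mutant libraries lay close together, between the lower and the upper pair of wild type libraries, and the levels were 7.10 ± 3.37 CPM in wild type against 7.14 ± 0.317 CPM in Morc2b-/-, a log2 fold change of 0.00 (-0.69 to 0.69). H2bc4 has 2 listed transcripts, and 1853 of its 1854 counts fell on 1 of them, so any reads shared by them are missing from its level. H2bc18 had 4, 77, 50 and 12 counts in wild type and 75, 68, 77 and 58 counts in Morc2b-/-. Wild type replicates 1 and 4, the pair with the most H2bc4 counts, had the fewest H2bc18 counts, and the other wild type libraries reached or nearly reached the mutant values. Its levels were 1.27 ± 1.27 CPM in wild type and 2.12 ± 0.255 CPM in Morc2b-/-, and the log2 fold change was 0.75 (-0.90 to 2.39), the largest of a canonical gene, with an unadjusted p of 0.331 and an adjusted p of 0.9998 in edgeR's quasi-likelihood test. H2bc18 lies at chr3:96073644-96082924 (mm9, plus strand), and all its windows were found once. The role of the mixed strain background in the spread of both genes was not tested.

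The linker genes H1f2 and H1f1 had 54 to 259 and 42 to 89 counts in wild type and 65 to 149 and 30 to 90 counts in Morc2b-/-. Their log2 fold changes were -0.13 (-1.01 to 0.75) and -0.10 (-0.77 to 0.57). H1f5, another canonical linker gene, had 29, 10, 14 and 11 counts in wild type and 7, 21, 11 and 9 counts in Morc2b-/-. One library of each group lay above the rest, and its log2 fold change of -0.49 (-1.34 to 0.35) had the smallest unadjusted p of the histone genes, 0.219 (adjusted p = 0.9998, edgeR). H2bu2 and H4c9, at 1 to 28 counts a sample, had log2 fold changes of 0.09 (SE 0.31) and -0.22 (SE 0.59), and H2bc11 and H2bc14, at 18 counts or fewer, were not tested.

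Of the pseudogenes, Macroh2a3 measured 5.64 ± 0.835 CPM in wild type and 5.59 ± 1.06 CPM in Morc2b-/-, a log2 fold change of -0.01. H2af-ps2 had 9 to 27 counts a sample and a log2 fold change of 0.02, and H2bu1-ps had 2 to 15 counts and was not tested.

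The forms of spermatogonia and spermatocytes were present in every library at low counts. H2bc1 encodes TH2B, the H2B of spermatogenic cells, and had 52, 40, 27 and 34 counts in wild type and 16, 58, 52 and 44 counts in Morc2b-/-. The 3 higher mutant libraries lay at 1.49 to 1.57 CPM and Morc2b-/- replicate 1 at 0.517 CPM, and the log2 fold change was 0.05 (-0.71 to 0.82). H2ac1, which encodes its partner TH2A from the neighbouring locus on chromosome 13, had 8, 5, 8 and 9 counts in wild type and 4, 14, 13 and 6 counts in Morc2b-/-. H1f6, the linker histone H1t of pachytene cells, had 10, 6, 7 and 9 counts in wild type and 6, 13, 14 and 20 counts in Morc2b-/-. In both genes 2 or 3 mutant libraries lay above the wild type libraries and Morc2b-/- replicate 1 lay below them, and neither had enough counts to be tested. H3f4, the testis form of H3, had 26, 9, 10 and 7 counts in wild type and 8, 15, 17 and 11 counts in Morc2b-/-, with wild type replicate 1 and Morc2b-/- replicate 3 the highest of their groups and a log2 fold change of -0.09 (-0.94 to 0.76). Summed, the 4 genes measured 2.13 ± 0.362 CPM in wild type and 2.33 ± 0.824 CPM in Morc2b-/-. All 3 of them with an annotated coding end carry the stem-loop, and whether the counted transcripts had a poly(A) tail was not tested. A marker list of 7 leptotene and zygotene genes ranged from 863 to 1615 CPM in wild type and from 781 to 1630 CPM in Morc2b-/-. Its part in these values was not tested.

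Spermatid forms differed between libraries far more than between genotypes. Spermatids are not yet formed at postnatal day 12. Of the 24 genes, 13 were at 0 counts in every sample, 4 reached 1 to 9 counts and 7 reached 10 or more. Hils1, the linker histone of elongating spermatids, had 180, 2, 2 and 1 counts in wild type and 15, 42, 377 and 2 counts in Morc2b-/-. H1f7, the linker histone H1T2 that marks one pole of the spermatid nucleus, had 134, 1, 0 and 0 counts in wild type and 13, 21, 258 and 0 counts in Morc2b-/-. In both genes a single library per genotype, wild type replicate 1 and Morc2b-/- replicate 3, held most of the counts. H2bl1, a divergent H2B of spermatids, had 138, 0, 1 and 1 counts in wild type and 11, 25, 230 and 0 counts in Morc2b-/-. H2al2a encodes H2A.L.2, an H2A form that opens nucleosomes before protamines enter, and had 95, 0, 0 and 1 counts in wild type and 8, 27, 195 and 0 counts in Morc2b-/-. H2al3, a related H2A form, had 38, 0, 0 and 0 counts in wild type and 7, 15, 121 and 0 counts in Morc2b-/-. In these 5 genes the 4 highest libraries came in the same order. H2al1n had 13, 0, 1 and 0 counts in wild type and 1, 6, 40 and 0 counts in Morc2b-/-. H2al1m, of whose windows 18.3% were found once, had 4, 2, 1 and 1 counts in wild type and 2, 4, 25 and 3 counts in Morc2b-/-.

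In all 7 genes Morc2b-/- replicate 3 was the highest library and wild type replicate 1 the second, followed by Morc2b-/- replicate 2, though in H2al1m the latter pair had 4 counts each. Summed over the 7, the level was 16.4, 0.183, 0.179 and 0.126 CPM in wild type and 1.84, 3.79, 35.7 and 0.172 CPM in Morc2b-/-. Wild type replicate 1 and Morc2b-/- replicate 3 together held 89.2% of this signal. The other wild type libraries and Morc2b-/- replicate 4 had 0 to 3 counts of each gene, at or under the 3 counts taken as the floor, which stands for 0.0811 to 0.110 CPM. Over all 24 spermatid forms the sums were 4.37 ± 8.17 CPM in wild type and 10.6 ± 17.2 CPM in Morc2b-/-, so that each SD exceeded its mean. The log2 fold changes of the 3 genes with enough counts were 1.27 (-2.28 to 4.82) for Hils1, 1.14 (-2.63 to 4.92) for H1f7 and 0.96 (-2.70 to 4.61) for H2bl1. Without Morc2b-/- replicate 3 they were -1.17, -1.49 and -1.47, and without wild type replicate 1 they were 5.67, 7.09 and 6.16, so the direction turned with a single library, and none of these values passed the adjusted threshold.

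**Figure D4:**
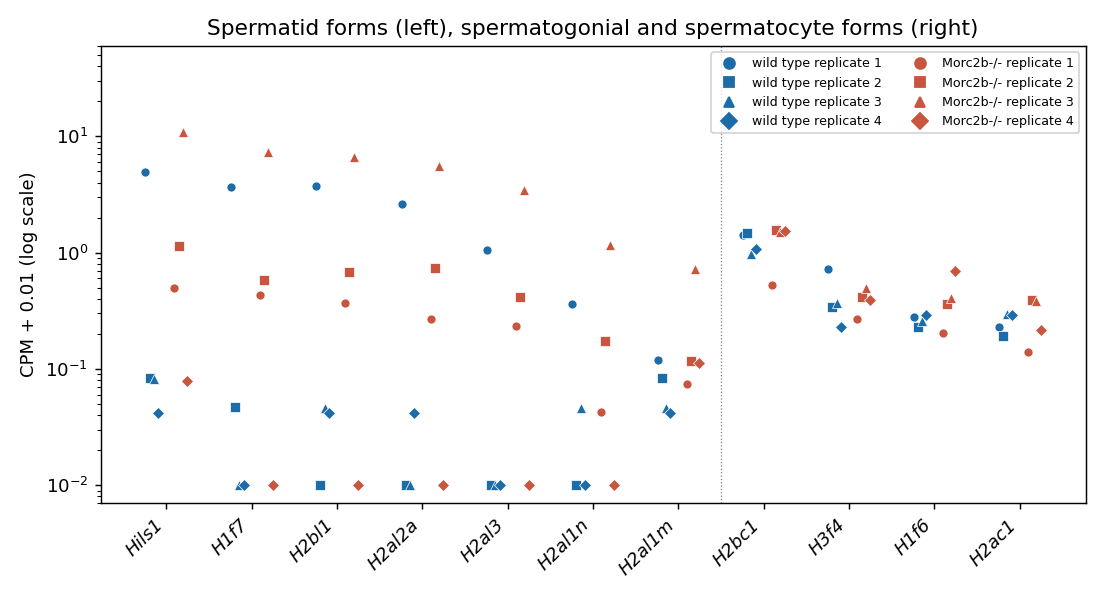
TMM-scaled CPM plus 0.01 (log scale) in each of the 8 samples for the 7 spermatid forms with 10 or more counts in a sample, left of the dotted line, and for the 4 spermatogonial and spermatocyte forms, right of it. Morc2b-/- replicate 3 (red triangles) and wild type replicate 1 (blue circles) stand above the other libraries in every spermatid form, by a narrow margin for wild type replicate 1 in H2al1m, whereas in the forms to the right the highest and the lowest library differ 2.93-fold to 3.55-fold.

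The sum of spermatid markers that are not histones was high in the same libraries. The summed level of 9 of them, which include the protamine genes Prm1 and Prm2, was 75.8, 6.16, 6.5 and 4.37 CPM in wild type and 13.1, 20.5, 148 and 5.29 CPM in Morc2b-/-, with 6 of the 9 tested, 6 with a positive log2 fold change and 0 past any threshold. Prm1, Prm2, Acrv1, Odf1 and Tssk6, 5 of the 9, had their highest levels in Morc2b-/- replicate 3 and wild type replicate 1. The others did not, and Izumo1 was lowest of all 8 libraries in wild type replicate 1 (2.64 CPM), Akap4 had at most 4 counts in a library and Gapdhs had 0 counts in both. The 4 libraries with the most spermatid histone counts were those with the highest marker sums. The epididymis sum, high in wild type replicate 1, was 4.76 CPM in Morc2b-/- replicate 3. Whether spermatid RNA from another source entered these libraries was not tested.

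The genes that serve histone supply were then read as lists. Of 24 S phase genes, 20 were tested and 0 passed the adjusted or the unadjusted threshold, with log2 fold changes from -0.25 to 0.09 and a median of -0.01. Pcna, the sliding clamp of DNA copying, measured 74.7 ± 7.45 CPM in wild type and 75.5 ± 8.61 CPM in Morc2b-/-, a log2 fold change of 0.01 (SE 0.10). Mki67, a gene of dividing cells, measured 773 ± 99.2 CPM in wild type and 664 ± 77.3 CPM in Morc2b-/-, a log2 fold change of -0.22 (SE 0.11) with an unadjusted p of 0.0759 (adjusted p = 0.9998, edgeR). Of 13 genes of histone transcript production, 8 were tested and 0 passed, with a median of 0.04. Npat, which switches on canonical histone genes at the start of S phase, measured 238 ± 20.3 CPM in wild type and 249 ± 7.82 CPM in Morc2b-/-, a log2 fold change of 0.06 (SE 0.07). Slbp, whose product binds the stem-loop, was listed at 0 counts in every sample, which is no measure of its expression.

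Of 29 histone chaperone genes, 25 were tested and 0 passed either threshold, with a median log2 fold change of -0.02. Nasp, which holds free H3 and H4, measured 270 ± 26.0 CPM in wild type and 264 ± 22.5 CPM in Morc2b-/-, a log2 fold change of -0.03 (SE 0.08). Hjurp, which places CENP-A at centromeres, measured 60.5 ± 6.64 CPM in wild type and 51.8 ± 7.09 CPM in Morc2b-/-, a log2 fold change of -0.23 (SE 0.12) with an unadjusted p of 0.0858 (adjusted p = 0.9998, edgeR). In none of the 3 lists did the genotypes of a tested gene separate.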

How the data were processed

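RNA from 8 pairs of testes was sequenced from TruSeq Stranded mRNA libraries on a NextSeq 500. The authors trimmed adapters, mapped reads with Tophat to NCBI37/mm9 and deposited raw counts per RefSeq transcript; which counter, strand option and annotation release they used is not given in the sources used here. Of 35819 transcripts 35522 matched a symbol (GRCm38.p6 table) and were summed per gene; 297 others held 0.484% of counts. Genotypes were compared with edgeR 4.0.16 (R 4.3.3; TMM, filterByExpr, quasi-likelihood F-test, no covariate) over all genes, with Benjamini-Hochberg adjustment; intervals are 95% from the fit. DESeq2 1.42.0, limma-voom (limma 3.58.1), RLE, other filters, the replicate number as a block, single transcripts and left-out samples were alternatives. The procedure was tested on simulated data. No 2 libraries agreed within counting error (chi-square per degree of freedom at least 7.38). Counting floors cover counting error only, and p-values judge the genotype difference against the spread between these samples.

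The histone genes and the lists were chosen with earlier results of these data known. Named were testis forms with 10 or more counts in a sample, the 10 highest genes, the 5 largest fold changes, 9 fixed variants and 6 supply genes. Further genes were named after their values were seen (H1f1, H1f2, H2bu2, H4c9, H2bc11, H2bc14, the pseudogenes and the genes without counts or without a stem-loop). Summed CPM of the other marker lists ranged over the 8 libraries from 795 to 1040 (spermatogonia), 104 to 249 (pachytene spermatocytes), 6337 to 7773 (Sertoli cells, 1 of 6 tested genes at unadjusted p under 0.05, higher in Morc2b-/-), 106 to 621 (Leydig cells), 714 to 1497 (peritubular myoid cells, highest in wild type replicate 1) and 128 to 201 (macrophages); 0 genes of any list passed the adjusted threshold.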

Additional observations from a re-analysis of the deposited data

Results flagged for a closer look

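A library lay far from the other 3 of its genotype, by Dixon's criterion at 95%, in 14 of 48 groups examined (24 histone genes in 2 genotypes). The spermatid forms among the 24 genes were picked for reaching 10 or more counts in a sample. Most of their signal (89.2%) lay in the 2 libraries flagged for them, so the 14 cannot be compared with a rate expected by chance. Of the 14, 13 concern spermatid forms. Wild type replicate 1 stood alone at 4.91 CPM for Hils1, 3.65 for H1f7, 3.76 for H2bl1, 2.59 for H2al2a, 1.04 for H2al3 and 0.354 for H2al1n. Morc2b-/- replicate 3 stood alone at 10.8 CPM for Hils1, 7.39 for H1f7, 6.59 for H2bl1, 5.59 for H2al2a, 3.47 for H2al3, 1.15 for H2al1n and 0.716 for H2al1m. These genes share their libraries and are not independent of each other. The remaining value was low, with H2bc1, the gene of TH2B, at 0.517 CPM in Morc2b-/- replicate 1 against 1.49 CPM in the next library.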

How the results depend on the processing

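The count of histone genes past the adjusted threshold was 0 under every alternative run. At an unadjusted p under 0.05 and higher in Morc2b-/-, the count was 1 without a low-count filter (H2al1m; 0.636% of all genes), 1 with the replicate block (H3f3a, log2 fold change 0.17; 2.01%) and 0 to 3 with 1 library left out, with 3 without wild type replicate 1 (Hils1, H1f7, H2bl1; 1.19%) and 1 without Morc2b-/- replicate 1 (H1f6; 0.779%). Supply genes lower at that threshold numbered 1 with the replicate block (Hjurp, -0.23; 2.22% of all genes) and 0 to 1 with 1 library left out (Hjurp without wild type replicate 3, 2.56%; Mki67 without wild type replicate 4, 1.51%; Atrx without Morc2b-/- replicate 1, 2.02%). The main test compared 2 groups, as the study did, and did not treat replicate numbers as pairs. Deviations of same-numbered samples correlated from -0.32 to 0.45 and those of differently numbered samples from -0.50 to 0.61. Of 8 samples, 4 correlated best with their own number, which does not settle whether the numbers mark pairs. The replicate block raised the share of all genes at unadjusted p under 0.05 from 0.503% to 2.01% (higher) and from 1.34% to 2.22% (lower). Genes without overlap numbered 0 to 2 higher (H2bc18 without wild type replicate 2, 0.822% of all genes; H1f6 and H2bc1 without Morc2b-/- replicate 1, 1.47%) and 0 to 1 lower (H1f5 without Morc2b-/- replicate 2, 1.46%; H2bc21 without Morc2b-/- replicate 3, 1.59%). An alternative added after seeing the data left out the library labelled wild type replicate 3 and Morc2b-/- replicate 3, whose Morc2b levels overlapped; 1 gene then lay lower without overlap (H2bc21; 4.34% of all genes), and no histone or supply gene passed a threshold.

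With 1 library left out, the mean difference of class sums (Morc2b-/- minus wild type) ran from -5.13 to 2.51 CPM for canonical genes, 21.3 to 129 for replacement variants and -2.27 to 10.3 for spermatid forms, negative without Morc2b-/- replicate 3. Fold changes whose sign turned, none of them past a threshold in full data, ranged on the log2 scale with 1 library left out from -1.49 to 7.09 for H1f7, -1.47 to 6.16 for H2bl1, -1.17 to 5.67 for Hils1, -0.067 to 0.31 for H2bc1, -0.30 to 0.35 for H3f4, -0.036 to 0.25 for H1f0, -0.071 to 0.18 for Macroh2a2, -0.31 to 0.012 for H1f10, -0.31 to 0.050 for H2bc21, -0.085 to 0.052 for H2aj, -0.20 to 0.0042 for H2az2, -0.085 to 0.21 for H2aw, -0.21 to 0.25 for H2bc4, -0.081 to 0.022 for Nasp and -0.048 to 0.077 for Pcna. Without the library labelled wild type replicate 3 and Morc2b-/- replicate 3 the values were -1.88 for H1f7, -1.85 for H2bl1, -1.55 for Hils1, -0.13 for H2bc1, -0.025 for H1f0, -0.10 for H2aw and -0.14 for H2bc4. Without wild type replicate 1 and Morc2b-/- replicate 3 they were 0.21 for H3f4, 0.048 for H2aj and -0.024 for H2aw. H2bc1 stood at -0.046 with limma-voom and -0.021 with the replicate block, and H2bc4 at -0.0044 with at least 10 counts in every sample. The cause of these turns was not tested.

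The 83 untested genes did not pass the low-count filter, and what kept their counts low was not tested. Reads shared between histone genes or between transcripts of 1 gene were not counted, so low counts are no measure of expression.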
